A study of Homo sapiens with 4 samples.

Results

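MYC, its neighbour PVT1 and the microRNA hairpin genes MIR1204, MIR1205, MIR1206, MIR1207 and MIR1208 were followed in Ewing sarcoma (EWS) cells exposed to exosomes (EXOs) that lack CD99. Of these 7 genes, 5 had a row of their own among the 67539 rows of the values table, with 1 row each: MYC, MIR1205, MIR1206, MIR1207 and MIR1208. PVT1 and MIR1204 had no such row and were annotated together on 1 shared row, which is therefore described apart. The genes were selected on measured values of these same arrays, because MIR1206 and MIR1207 were among the hairpin rows with the highest log2 differences. Their differences are accordingly given as a description, without a p-value. Where a row of the set is said to be called, this only places it against the thresholds used for all rows and supports nothing, since the selection used the same values.

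The recipient cells were TC-71, an established EWS cell line. One group, TC-71 + TC-CD99neg EXOs (2 arrays, replicates C and D), had received for 24 h, at 10 µg per 5000 cells, EXOs purified from the medium of TC-71 cells in which CD99 was stably silenced by an shRNA. The exposure was made without serum. The other group, TC-71 (2 arrays, replicates A and B), was left without EXOs, and its serum condition is not given in the sources used here. No group of these arrays received EXOs that carry CD99, so the addition of EXOs and their lack of CD99 cannot be told apart. Arrays within a group are labelled as biological replicates, but no separate culture is named for any of them, and a p-value therefore measures only the spread between these samples. RNA was measured on Human Transcriptome Array 2.0 chips, which carry probes for coding and noncoding transcripts.

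MYC encodes a basic helix-loop-helix leucine zipper transcription factor that binds DNA with its partner MAX and promotes the transcription of genes for ribosome production, metabolism and cell division. PVT1 is the long noncoding RNA gene next to MYC, and it is often amplified together with MYC in tumors. Hairpins such as those of MIR1204 to MIR1207 are folded parts of a longer primary transcript, from which Drosha and Dicer cut the mature microRNA. A hairpin row on this array can bind the primary transcript and the precursor, so its signal is not a level of mature microRNA. In the RefSeq annotation (GRCh38.p14) the genes follow each other as MYC, PVT1, MIR1204, MIR1205, MIR1206, MIR1207 and MIR1208. MIR1204, MIR1205, MIR1206 and MIR1207 lie inside the span of PVT1, whereas MIR1208 lies beyond its end and MYC before its start.

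The values are log2 signals after quantile normalization, and differences are the mean of the exposed cells minus the mean of the TC-71 cells. A row was called when the difference reached a fold of 1.5 and the adjusted p from limma, with Benjamini-Hochberg adjustment over all rows, was at most 0.05. Array medians were 5.451 and 5.439 in exposed cells, against 5.424 and 5.38 in TC-71 cells. Over all rows, 1043 were called higher in exposed cells, a background share of 1.54%, and 703 were called lower, a share of 1.04%. After each array was centred on its median the split was 865 higher and 867 lower. Without TC-71 replicate B, 990 rows were called higher and 425 lower. The median difference over all rows was 0.00984, and the median standard error was 0.0485. All 10 markers of EWS cells had a row, with mean log2 signals between 6.32 and 11.03 in exposed cells and between 6.65 and 11.19 in TC-71 cells. The measured markers of leukocytes (4 of 5 with a row), endothelium (3 of 3) and epithelium (4 of 4) had means between 4.54 and 7.08 in exposed cells and between 4.54 and 7.15 in TC-71 cells. The 4 of 4 fibroblast markers had means between 5.05 and 7.38 in exposed cells and between 4.78 and 7.97 in TC-71 cells. Among the EWS markers, PAPPA was called higher and NR0B1 lower, and the call of NR0B1 was lost without TC-71 replicate B or without exposed replicate C. CD99 itself (2 rows, the brighter given) had log2 signals of 10.24 and 10.25 in exposed cells, against 9.93 and 9.98 in TC-71 cells. Its difference of 0.29 (SE 0.04, limma adjusted p = 0.0231) stayed below the fold of 1.5, so it was not called.

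The hairpin rows inside PVT1 did not behave alike, and the highest differences were those of MIR1206 and MIR1207. MIR1206 had log2 signals of 8.25 (C) and 8.20 (D) in exposed cells, against 6.30 (A) and 6.59 (B) in TC-71 cells. Both exposed arrays stood above both TC-71 arrays, with 1.61 log2 units between the lower exposed and the higher TC-71 array. Groups of 2 arrays separate easily, here and in the rows below. The share of all rows that do so was not counted. The difference was 1.78 (SE 0.10), a fold of 3.42, and it placed MIR1206 at rank 11 of all rows and at rank 1 of the 1094 rows named for a single microRNA hairpin.

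For MIR1207 the log2 signals were 9.78 (C) and 9.76 (D) in exposed cells, against 8.28 (A) and 8.07 (B) in TC-71 cells. Again the groups lay apart, here by 1.48 log2 units, and the arrays within a group were much closer to each other than to the other group. The difference was 1.59 (SE 0.08), a fold of 3.02, at rank 51 of all rows and rank 3 of the hairpin rows. In exposed cells the SD was 0.031 for MIR1206 and 0.008 for MIR1207 (n = 2), whereas in TC-71 cells it was 0.204 and 0.153 (n = 2). Of all rows, 73.7% had an SD below 0.1 in both groups, which neither hairpin had.

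MIR1205, the hairpin gene before MIR1206, had log2 signals of 7.06 (C) and 7.26 (D) in exposed cells, against 6.47 (A) and 6.37 (B) in TC-71 cells. The groups were separated by 0.60 log2 units. Its difference of 0.74 (SE 0.08), a fold of 1.67, was smaller than those of MIR1206 and MIR1207 and stood at rank 25 of the hairpin rows. This call was lost without TC-71 replicate A and without TC-71 replicate B, with differences of 0.79 and 0.69 from the arrays that were left.

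MIR1208, the only hairpin gene of the set that lies beyond the end of PVT1, had log2 signals of 5.598 (C) and 5.70 (D) in exposed cells, against 5.598 (A) and 5.48 (B) in TC-71 cells. Exposed replicate C and TC-71 replicate A differed by 0.0002 log2 units, so the groups all but touched. The difference was 0.11 (SE 0.06), at rank 318 of the hairpin rows, and it was not called.

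PVT1 itself can be read only through the row it shares with MIR1204, whose signal cannot be assigned to either gene. This row had log2 signals of 8.89 (C) and 8.87 (D) in exposed cells, against 7.85 (A) and 7.97 (B) in TC-71 cells. The groups were separated by 0.90 log2 units, and the difference was 0.975 (SE 0.05), a fold of 1.97. In size it lay between that of MIR1205 and that of MIR1207.

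MYC, the protein-coding neighbour, had log2 signals of 10.62 (C) and 10.62 (D) in exposed cells, against 10.63 (A) and 10.73 (B) in TC-71 cells. Its difference was -0.06 (SE 0.05), a fold of 0.957, and it was not called. The exposed arrays lay below both TC-71 arrays, but by only 0.0079 log2 units, and a single array of TC-71 cells (B) set most of the distance. The size of the MYC difference was thus close to its standard error. In bulk RNA of this kind, a change in the share of cells that express a gene cannot be told apart from a change in its RNA per cell.

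**Figure D1:**
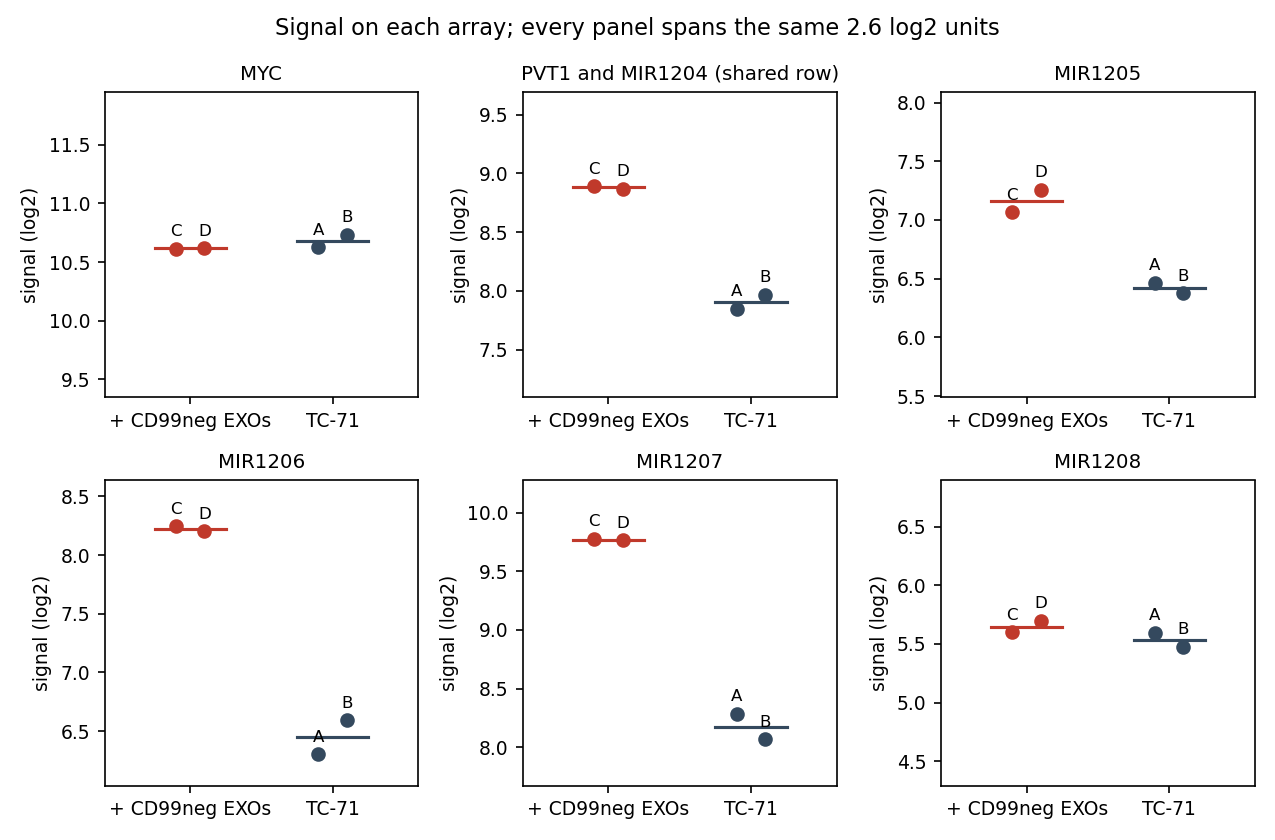
Log2 signal of each array (points, letters give the replicate) and group mean (line) for MYC, the row shared by PVT1 and MIR1204, and the hairpins MIR1205 to MIR1208, with TC-71 + CD99neg EXOs left of TC-71 in every panel. All panels span an equal height of log2 units: MIR1206 and MIR1207 lie 1.78 and 1.59 higher in exposed cells, and MYC and MIR1208 differ by -0.06 and 0.11.

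Of the 5 rows of the set, 3 were called higher, 0 were called lower and 2 were not called. Beside them, 31 of the 1094 hairpin rows were called higher in exposed cells, a background share of 2.83%, and 4 were called lower, a share of 0.366%. The selection used this contrast, and nothing is read from the count. Without TC-71 replicate A, 17 hairpin rows were called higher and 2 lower. The median difference over the hairpin rows was 0.0325. These counts and ranks are of rows and not of genes, and some hairpins have several rows. MIR1256 was called on rows whose identifiers carry other chromosomes, with 0.97 and 0.63. Its row on its own chromosome had 0.14 and was not called.

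The selection had no numeric threshold, and the hairpin rows next in rank show where MIR1206 and MIR1207 stood. MIR181B1, the hairpin of a miR-181 gene, lay between them at rank 2, with log2 signals of 7.999 (C) and 7.76 (D) in exposed cells, against 6.13 (A) and 6.19 (B) in TC-71 cells, a difference of 1.72 (SE 0.09). Ranks 4 and 5 were held by MIR505, a hairpin on chromosome X, with 1.35 (SE 0.06), and by MIR4474, on chromosome 9, with 1.35 (SE 0.04). Each of these 3 rows was called (limma adjusted p = 0.00442 for MIR181B1, 0.00393 for MIR505 and 0.00284 for MIR4474).

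**Figure D2:**
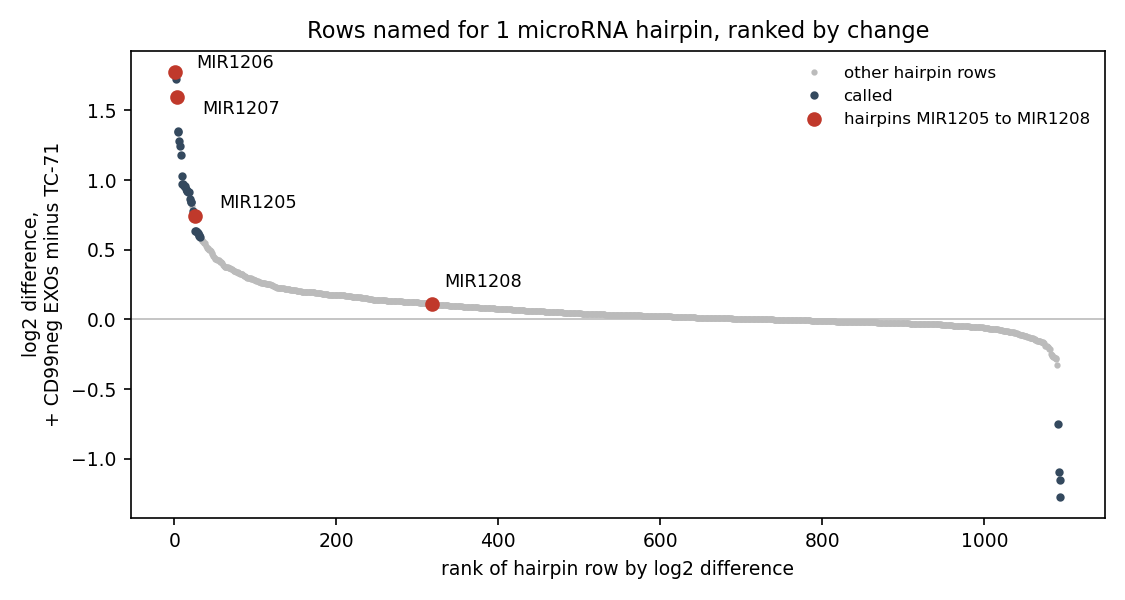
Log2 difference (TC-71 + CD99neg EXOs minus TC-71) of the 1094 hairpin rows against their rank, with called rows in dark blue and MIR1205 to MIR1208 in red. MIR1206 and MIR1207 stand at ranks 1 and 3, MIR1205 at rank 25, and MIR1208 at rank 318 within the flat part of the curve.

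The rows most like MIR1206 and MIR1207 were sought by the root mean square (RMS) difference over the 4 arrays, after each row was centred on its TC-71 mean. MIR1206 was nearest to MIR181B1 (RMS 0.112), to 1 of the 2 rows of the bitter taste receptor gene TAS2R14 (0.125) and to MIR1207 (0.221). MIR1207 was nearest to the same TAS2R14 row (0.156), to MIR181B1 (0.156) and to PAPPA (0.164), which encodes a metalloprotease that cleaves IGF-binding proteins. The TAS2R14 row had a difference of 1.64 (SE 0.09), and PAPPA had log2 signals of 9.38 and 9.37 in exposed cells, against 7.90 and 8.004 in TC-71 cells. For MYC the nearest rows were NOM1 (0.0017), IPO5 (0.00173) and TTL (0.00401). Only the 23383 rows with 1 symbol were searched. Of these, 12274 lay within 0.1 of MYC, and the order among them carries little. Likeness over 4 arrays is a description of these arrays only.

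The row identifiers of the table carry numbers that can be set beside the locus. They are of the kinds PSR and JUC, which on this array type name probe regions and splice junctions. The authors, however, report their changes as transcript clusters. Which probes stand behind a row is thus not settled here. Read in the order of these numbers, the named genes of chromosome 8 followed their RefSeq order in 651 of 666 neighbouring pairs of JUC rows and in 106 of 108 of PSR rows. The numbers run along the chromosome more than once, so rows next to each other in number need not be next to each other on the chromosome. Rows with no gene name are thus described by number alone, a step chosen after their values were seen. One such row, numbered between MIR1205 and MIR1206, had log2 signals of 9.85 (C) and 9.80 (D) in exposed cells, against 9.34 (A) and 9.51 (B) in TC-71 cells, a difference of 0.40 (SE 0.07). It lay below the fold of 1.5 and was not called. The JUC row numbered next after the row of PVT1 and MIR1204 was followed in number by the row of EFR3A, a gene well beyond PVT1, so its place in this interval is not known. It had log2 signals of 9.61 (C) and 9.53 (D) in exposed cells, against 7.88 (A) and 8.07 (B) in TC-71 cells. With a difference of 1.59 (SE 0.08) it was as far apart between the groups as MIR1207, but it names no gene.

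LINC02912, a long noncoding RNA gene placed by RefSeq inside the span of PVT1, had its own row, which is named here after its values were seen. Its log2 signals were 5.41 (C) and 5.44 (D) in exposed cells, against 5.31 (A) and 5.41 (B) in TC-71 cells, a difference of 0.06 (SE 0.05). Named rows within PVT1's span thus ranged between 0.06 and 1.78 in their differences. The lowest of them, LINC02912, had signals near the array medians. Strand was not considered, so LINC02912 need not share a transcript with PVT1.

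Around the locus, the list of chromosome 8 neighbours held 34 genes, of which 19 had a row and 15 had none. None was called higher, against a background of 1.13% of the 22036 genes, and 1 was called lower, against 0.967% of genes. That gene was ASAP1, which encodes an Arf GTPase-activating protein of the actin cytoskeleton. It had log2 signals of 8.29 (C) and 8.22 (D) in exposed cells, against 8.82 (A) and 8.96 (B) in TC-71 cells. Its difference was -0.64 (SE 0.06, limma adjusted p = 0.0116), and without TC-71 replicate B it was -0.57 and not called.

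The genes nearest to MYC and PVT1 had small differences that were not called. The retrogene POU5F1B, just before MYC, had a difference of 0.10 (limma adjusted p = 0.255), and the noncoding RNA gene PCAT1 (2 rows, the brighter given) had 0.22 (0.177). Beyond PVT1, CCDC26 had 0.03 (0.823) and GSDMC, of the gasdermin family, had 0.02 (0.894). Mean log2 signals in exposed and TC-71 cells were 5.53 and 5.43 for POU5F1B, 4.87 and 4.85 for CCDC26 and 4.73 and 4.71 for GSDMC. These rows, like MIR1208 and LINC02912, lay near or below the array medians. Without detection calls, a small difference there cannot be told apart from a transcript that was not detected. Farther out, the zinc finger gene ZNF572 had 0.42 (SE 0.06, adjusted p = 0.026 in limma) and TRIB1, encoding a pseudokinase, had -0.35 (SE 0.04, adjusted p = 0.013), both below the fold of 1.5 and not called. The median over the 19 measured neighbours was 0.021, beside 0.00345 over all genes.

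**Figure D3:**
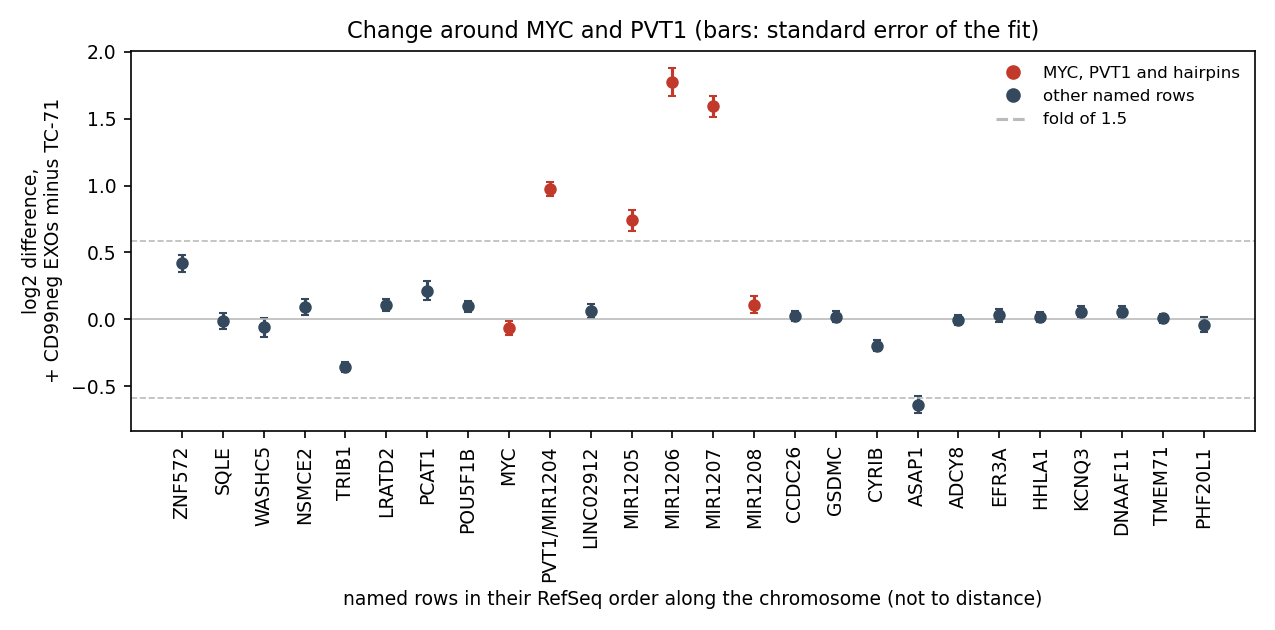
Log2 difference (TC-71 + CD99neg EXOs minus TC-71, bars are the standard error) of MYC, the row of PVT1 and MIR1204 and the hairpins (red) and of other named rows around them (blue), in RefSeq order and not to distance, with dashed lines at a fold of 1.5. The high differences lie between the PVT1 row (0.975) and MIR1207 (1.59), where LINC02912 lies at 0.06. MYC on one side (-0.06) and MIR1208 on the other (0.11) stay near 0, and ASAP1 lies at -0.64. The signals of MIR1208, LINC02912, POU5F1B, CCDC26 and GSDMC were near or below the array medians.

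A hairpin inside a gene shares a primary transcript with it where both lie on the same strand, so hairpin rows were set beside the rows of the genes that hold them. This comparison was added after the values were seen, and strand was not considered. A gene was read from its brightest row whose identifier carries the chromosome of the gene, which left out 16 hairpin genes. Of the 1030 hairpin genes kept, 779 lay inside a protein-coding or long noncoding RNA gene. For 555 of them exactly 1 such gene had a row, which gave 470 host genes. PVT1 is not among these hosts because its row is shared with MIR1204. Among the 555 hairpins, 15 were called higher and 2 lower. The host was called for 2 of these 17 and was not called for 15, and 9 of the 11 called hosts held no called hairpin. Across the 555 pairs Pearson's r was 0.14 and Spearman's rho was 0.052. These are correlations across genes, many of which share a host and all of which share the 4 arrays, and genes are not independent replicates.

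Both pairs in which hairpin and host were called were higher in exposed cells, and they are named after their values were seen. MIR421 had a difference of 0.62 (SE 0.10) and its host FTX, a long noncoding RNA gene on chromosome X, had 1.21 (SE 0.06). Inside FTX, however, MIR374A had 0.02, MIR374C -0.02 and MIR545 0.26, so that the hairpins of FTX, like those of PVT1, had unequal differences. MIR873 had 0.91 (SE 0.07) and its host LINGO2, which encodes a neuronal membrane protein with leucine-rich repeats, had 0.65 (SE 0.09). The calls of MIR421 and LINGO2 were each lost without TC-71 replicate A, without TC-71 replicate B or without exposed replicate D, where the lowest differences were 0.47 for MIR421 and 0.54 for LINGO2.

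**Figure D4:**
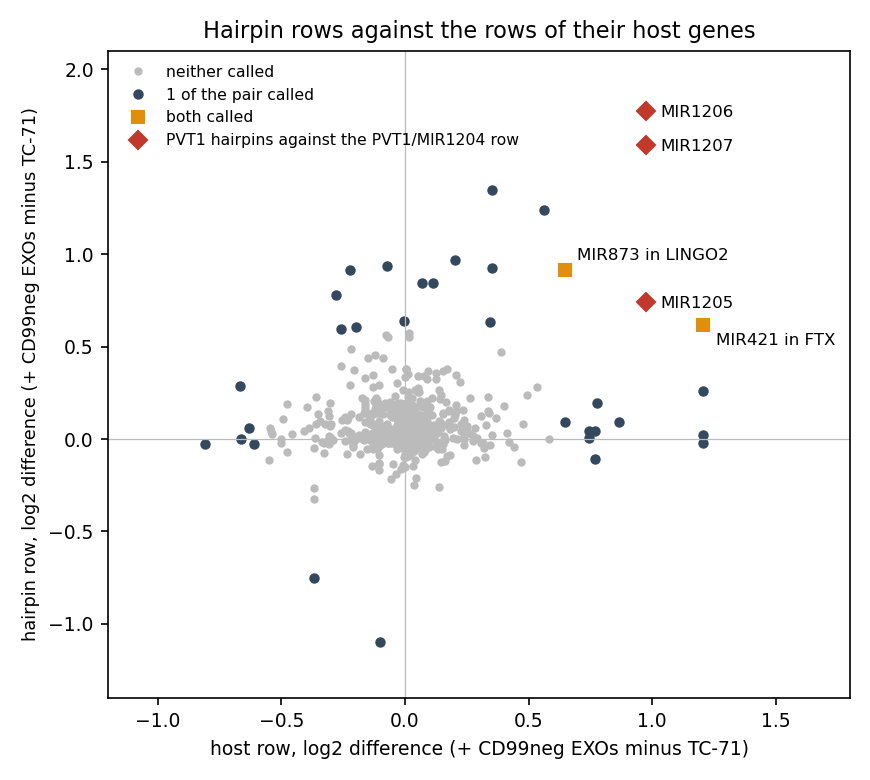
Log2 difference (TC-71 + CD99neg EXOs minus TC-71) of 555 hairpin rows against that of the row of their host gene, grey where neither was called, blue where 1 was and orange where both were. Red diamonds set MIR1205, MIR1206 and MIR1207 against the row of PVT1 and MIR1204 and lie at 0.74, 1.78 and 1.59 over a value of 0.975.

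The partners and regulators of the MYC protein were next examined. The list of the MYC and MAX network held 45 genes, of which 40 had a row. In exposed cells 0 were called higher, 1 was called lower and 39 were not called, with a median difference of 0.0278, beside shares of 1.13% higher and 0.967% lower over all genes.

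MYCN and MYCL, the paralogs of MYC, had differences of 0.00 (SE 0.09, limma adjusted p = 0.993) and -0.07 (SE 0.04, 0.490). The sign of the MYCN difference turned under other scalings, to -0.04 after median centring. MAX, the obligate dimer partner, had log2 signals of 7.21 (C) and 7.17 (D) in exposed cells, against 6.87 (A) and 6.90 (B) in TC-71 cells. MNT, a repressor that competes with MYC for MAX, had 7.84 (C) and 7.80 (D) in exposed cells, against 7.52 (A) and 7.44 (B) in TC-71 cells. The differences of 0.31 (SE 0.04, adjusted p = 0.0184 in limma) for MAX and 0.34 (SE 0.05, 0.0226) for MNT stayed below the fold of 1.5.

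The call in this list was USP28, a deubiquitinase that counteracts the degradation of MYC through FBXW7. It had log2 signals of 6.61 (C) and 6.66 (D) in exposed cells, against 7.22 (A) and 7.36 (B) in TC-71 cells. Its difference was -0.66 (SE 0.06, limma adjusted p = 0.0101), a fold of 0.635. In contrast, USP36, a nucleolar deubiquitinase of MYC, had a difference of 0.44 (SE 0.04, adjusted p = 0.0106) that did not reach the fold of 1.5. The same held for TCF7L2, a WNT effector that binds regulatory DNA of MYC, with 0.57 (SE 0.05, adjusted p = 0.00809), and for HCFC1, a cofactor that MYC binds, with 0.49 (SE 0.06, adjusted p = 0.0202). TCF7L2 passed the fold and was called without TC-71 replicate B and without exposed replicate D, at 0.60 and 0.59. In all, 7 genes of the network had an adjusted p of at most 0.05 without reaching the fold, 6 of them with a positive difference.

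Genes known to be activated by MYC formed a list of 91, of which 84 had a row. In exposed cells 0 were called higher and 0 lower with limma, beside shares of 1.13% higher and 0.967% lower over all genes. At such shares few calls would fall in a list of this size, so the absence of calls says little. Below the fold of 1.5, 19 genes had a limma adjusted p of at most 0.05, 7 with a positive and 12 with a negative difference. At an unadjusted p below 0.05 there were 43, of which 14 were higher and 29 lower. This was 51.2% of the list, beside 28.8% of all genes, and no matching on signal level was made. The median difference was -0.0595, and 60.7% of the list had a negative difference, beside 47.8% of all genes. Common reference genes such as GAPDH (9 of 10 with a row) had a median of -0.0775, with 6 negative. Their mean log2 signal was 9.61 in TC-71 replicate B, against 9.51 in A and 9.55 in both C and D. Whether such a shift between arrays entered the differences of the list was not tested. By role, the median was -0.102 over 31 genes of ribosome biogenesis (24 negative) and -0.174 over 14 genes of translation and protein folding (12 negative). It was 0.0452 over 25 genes of metabolism and nucleotide synthesis and 0.0216 over 14 genes of the cell cycle. All these medians were well inside the fold of 1.5.

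The widest differences of the list were of either sign. EXOSC5, a subunit of the nuclear RNA exosome, which is a complex of RNA decay and not a vesicle, had log2 signals of 9.94 (C) and 9.86 (D) in exposed cells, against 9.35 (A) and 9.37 (B) in TC-71 cells. CCNB1, cyclin B1, had 9.04 (C) and 9.13 (D) in exposed cells, against 9.55 (A) and 9.69 (B) in TC-71 cells. PPAT, the enzyme of the first committed step of purine synthesis, had 8.04 (C) and 8.09 (D) in exposed cells, against 8.54 (A) and 8.66 (B) in TC-71 cells. The differences of 0.54 (SE 0.04) for EXOSC5, -0.53 (SE 0.07) for CCNB1 and -0.53 (SE 0.05) for PPAT did not reach the fold of 1.5. CCT5, a subunit of the TRiC chaperonin, followed with -0.50 (SE 0.05). Without TC-71 replicate A, CCNB1 and PPAT passed the fold and were called, at -0.61 and -0.59.

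MYC and MAX bind the E-box CACGTG, and the promoters of the activated targets, taken as 250 bases before to 50 bases after the RefSeq start (GRCh38.p14), were searched for these letters. The motif is its own reverse complement, so both strands are read at once. It was found for 34 of the 71 targets that had a row and a promoter in the table (47.9%), beside 10.6% of the 15216 genes with a row and a promoter and 7.26% of all 35116 promoters. The median difference was -0.043 for the 34 targets with the motif and -0.074 for the 37 without it. To show what the motif looks like beside genes whose differences had opposite signs, the first match of the 4 targets with the widest differences among those with the motif is given, followed by that of ODC1, the first enzyme of polyamine synthesis and a classical MYC target. Each sequence comes from RefSeq, runs 5′ to 3′ on the strand of the gene, and has the E-box in capitals.
EXOSC5 (chr19:41397431-41397460, minus strand): taaacgctaagcCACGTGcggacgcccagg
CCNB1 (chr5:69166942-69166971, plus strand): gcagaggcagacCACGTGagagcctggcca
PPAT (chr4:56435780-56435809, minus strand): aacggagatttcCACGTGcagcaaatacag
PRMT3 (chr11:20387517-20387546, plus strand): ccgcccccacctCACGTGacccgcacggcg
ODC1 (chr2:10448024-10448053, minus strand): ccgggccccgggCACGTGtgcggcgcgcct

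The E-box stood upstream of EXOSC5, which had a difference of 0.54, as well as upstream of CCNB1 and PPAT, each with -0.53. PRMT3, a ribosomal protein methyltransferase, had a difference of -0.35 (SE 0.08) and ODC1 one of -0.02 (SE 0.05). A match of letters is not a site of binding, and no binding was measured in these samples.

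Genes known to be repressed by MYC formed a list of 27, of which 26 had a row. In exposed cells 0 were called higher and 1 lower, beside shares of 1.13% higher and 0.967% lower over all genes. The median difference was -0.00342, beside 0.00345 over all genes. The call was PDGFRB, a receptor tyrosine kinase of mesenchymal cells, with log2 signals of 7.17 (C) and 7.11 (D) in exposed cells, against 7.95 (A) and 7.99 (B) in TC-71 cells. Its difference was -0.82 (SE 0.04, limma adjusted p = 0.00452). PDGFRB also stands in the list of 4 fibroblast markers, whose other 3 genes were not called and had positive differences, 0.52 for DCN (SE 0.05, adjusted p = 0.012 in limma), 0.27 for LUM and 0.01 for COL1A1. The mean log2 signals of the 4 markers lay between 5.05 and 7.38 in exposed cells, against 4.78 to 7.97 in TC-71 cells, and the part of such cells in the result was not tested. The next largest differences in the list were small. ITGB1, integrin beta-1, had -0.24 (SE 0.05, adjusted p = 0.0649 in limma), the growth arrest gene GAS1 had 0.24 (SE 0.04, adjusted p = 0.0329), and CDKN2C, a CDK inhibitor, had 0.18 (SE 0.04, adjusted p = 0.0578), none of them called.

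**Figure D5:**
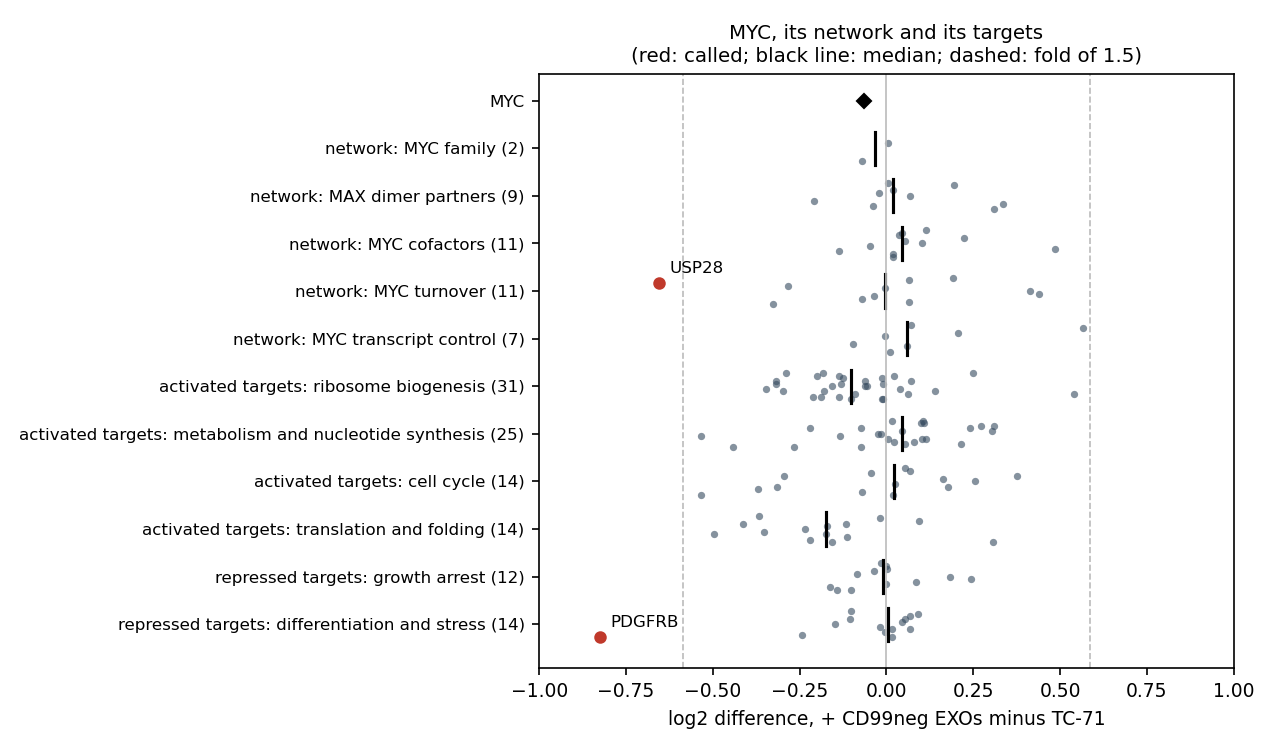
Log2 difference (TC-71 + CD99neg EXOs minus TC-71) of MYC (diamond) and of the genes of its network, activated targets and repressed targets by role (points, with the number measured in parentheses, black lines are medians), with dashed lines at a fold of 1.5. Only USP28 (-0.66) and PDGFRB (-0.82) lie past a dashed line and were called (red).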

How the data were processed

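RNA of 2 TC-71 + TC-CD99neg EXOs arrays and 2 TC-71 arrays was measured on Affymetrix arrays. The authors read the scanner files into GeneSpring, used ExonRMA16 for summarization and quantile normalized the arrays with no baseline transformation. The deposited log2 values were not changed further. The build behind the annotation is not given in the sources used here, and the tables carry no detection calls. Rows were named from the platform annotation, in which 23383 rows have 1 symbol, 1225 have several and 42931 have none. Old symbols were updated through RefSeq (GRCh38.p14) in 2566 rows.

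All rows entered 1 limma fit (limma 3.58.1, R 4.3.3, lmFit and eBayes) without a block, with 2 residual and 2.59 prior degrees of freedom, and the number of arrays limits the precision. The differences are those of exposed minus TC-71 cells, and a call required both a fold of 1.5 and an adjusted p no higher than 0.05. The fit was also run on simulated data with independent noise drawn from its own variance model. Such data cannot show how shifts shared by the rows of an array act on the calls, and nothing is read from them. Tables were made in Python 3.11.15.

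The genes of the set and the lists were chosen with earlier results of these data known. The genes named are the set itself and, per list, the called genes and those with the widest differences up to 4. To these were added MYCN, MYCL, MAX and MNT, the 3 rows most like MIR1206, MIR1207 and MYC, and the 3 hairpins nearest in rank. A gene with several rows was given by the one with the highest mean. The comparison with host genes, the E-box search and the rows placed by number were added after seeing the data. Alternatives covered the variance model, the scale between arrays, dim rows, repeated rows, the call threshold and leaving out each array. Sequences of the hairpins and promoters of the set are not shown here.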

Additional observations from a re-analysis of the deposited data

How the results depend on the processing

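No paired analysis was possible because the replicate letters A and B of TC-71 and C and D of exposed cells are not shared. Over 15 settings the difference lay at 0.64 to 0.83 for MIR1205, 1.63 to 1.92 for MIR1206 and 1.48 to 1.70 for MIR1207. It lay at 0.05 to 0.17 for MIR1208, 0.92 to 1.03 for the row of PVT1 and MIR1204 and -0.12 to -0.006 for MYC. The variance model, the thresholds and the handling of dim or repeated rows cannot change a difference. Leaving out 1 array cannot turn its sign where the groups lie apart, as in each of these rows. Only the scalings between arrays could have turned a sign, so nothing is read from the kept signs. The rows of the set were selected on these values, so their ranges and calls are listed and show no stability. MIR1206 and MIR1207 lost the call without moderation only, and MIR1205 lost it there, at a fold of 2, at an adjusted p of 0.01 and without TC-71 replicate A or B. Without moderation, which leaves 2 residual degrees of freedom, 0 of all rows, 0 rows of the set, 0 hairpin rows and 0 genes of the network, repressed target and neighbour lists were called. At a fold of 2, 421 of all rows were called, 12 hairpin rows and 0 genes of those 3 lists. At an adjusted p of 0.01, 920 of all rows and 14 hairpin rows were called, and 0 genes of the network and neighbour lists. With each array left out, 19 to 31 hairpin rows were called, against 35 with all arrays, and 1 to 2 network genes, 0 to 2 activated targets, 0 to 1 neighbours and 2 to 3 rows of the set. MYCN turned negative after median centring (-0.0388), repeated quantile normalization (-0.0315) and cyclic loess (-0.0156), and with each array left out it lay between -0.1113 (without exposed replicate C) and 0.1199 (without exposed replicate D), also negative without TC-71 replicate B (-0.0114). The cause of these changes was not tested. No other scaling moved the median of all rows by more than median centring did, a shift of -0.0431.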
